A study of Homo sapiens with 15 samples.

Results

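Messenger RNA was sequenced from K562 cells, an established chronic myeloid leukaemia line that carries BCR-ABL, to ask which genes the histone deacetylase (HDAC) inhibitor martinostat changes at each concentration. The 15 libraries formed 5 groups of 3 biological replicates: untreated cells and cells given martinostat at 0.15, 0.25, 0.5 or 1 µM for 24 h. All groups were the same line, so each group is a model of this single line only. The labels name no other agent and no genetic change, and whether the untreated cells received solvent is not given. The genes described here are 10 of the 60649 in the count table: the neuronal splicing regulators NOVA1, NOVA2, ELAVL2, ELAVL3, ELAVL4, RBFOX1, RBFOX2, RBFOX3, CELF3 and CELF4. They were chosen by family, and the set was selected on the rise of NOVA2 from 0 counts, so the values of NOVA2 are given as a description without a test, and every count of called genes leaves NOVA2 out.

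These 10 genes encode RNA-binding proteins that decide, in the nucleus or the cytoplasm, which exons of a transcript are kept and how long a message lasts. NOVA proteins bind YCAY elements through KH domains, RBFOX proteins bind GCAUG, CELF proteins bind GU-rich and ELAVL (Hu) proteins bind U-rich or AU-rich stretches. Most of them are known from neurons, where RBFOX3 is the antigen NeuN, and several were first described as targets of antibodies in paraneoplastic disease. RBFOX2, in contrast, is known from many tissues. In non-neuronal cells a part of the neuronal programme is held down by PTBP1, which represses neuronal exons, and by REST, a DNA-binding repressor of the RE1 element that recruits corepressor complexes containing HDAC1 and HDAC2.

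The start of the leading gene is shown first, with its CpG dinucleotides in capitals, since NOVA2 gave no reads in untreated cells. NOVA2 (ENSG00000104967.8) lies on chr19:45933734-45974044 of hg38, minus strand. The stretch below is the RefSeq promoter window of GRCh38.p14, 250 bases before and 50 after the start, at chr19:45973816-45974115 on the minus strand. CELF3, which also has a single window in that table (chr1:151716754-151717053, minus strand), is set beside it.
NOVA2: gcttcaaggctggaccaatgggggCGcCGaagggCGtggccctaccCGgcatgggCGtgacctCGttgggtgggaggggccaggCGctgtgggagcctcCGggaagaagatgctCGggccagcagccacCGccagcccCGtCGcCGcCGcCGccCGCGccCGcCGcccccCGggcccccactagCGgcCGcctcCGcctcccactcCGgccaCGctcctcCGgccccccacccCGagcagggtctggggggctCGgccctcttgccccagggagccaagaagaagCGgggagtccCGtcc
CELF3: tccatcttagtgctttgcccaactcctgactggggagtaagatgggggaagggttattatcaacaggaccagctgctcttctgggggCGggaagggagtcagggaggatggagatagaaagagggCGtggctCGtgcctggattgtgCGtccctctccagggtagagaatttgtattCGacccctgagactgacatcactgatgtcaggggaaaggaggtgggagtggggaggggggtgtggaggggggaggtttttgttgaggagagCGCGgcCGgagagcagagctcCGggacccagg
The NOVA2 window held 30 CpG and 76.7% G or C, and 77.6% of the 35116 promoter windows in the table held fewer CpG. The CELF3 window held 9 CpG and 58.7% G or C, against a median of 14 CpG over all windows. Entries were found for 8 of the 10 genes. The 3 NOVA1 windows held 31, 3 and 1 CpG, and the single CELF4 window held 11.

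Because REST recruits HDACs, 10 kb around each gene start was also searched on both strands for RE1-like sequence, written as the stretches TTCAGCACC and GGACAG separated by 2 free bases, with at most 2 of the 15 fixed letters changed. Such a match was found for 4 of the 10 genes and in 5.41% of 20033 windows of all protein-coding genes. The matches nearest to the starts of genes that rose with martinostat are shown, with letters equal to these stretches in capitals.
CELF3: TcCAGCACCggGGACAG
ELAVL3: TTCAGCACCacaGACAG
RBFOX3: gcCAGCACCaaGGACAG
The CELF3 match lies at chr1:151717104-151717120 on the minus strand, 317 bases before the gene start. The ELAVL3 match lies at chr19:11481965-11481981 on the plus strand, 935 bases before the start. Both have 1 changed letter, which 1.10% of all windows reach. The RBFOX3 match lies at chr17:79608135-79608151 on the minus strand, 2900 bases inside the gene, with 2 changed letters. ELAVL2, which was not tested, held 2 such matches of 2 changed letters each. No match was found in the windows of NOVA1, NOVA2 and CELF4, which rose as well, or in those of ELAVL4, RBFOX1 and RBFOX2. This says only that these letters are not there, and a part of such matches in the rise was not tested.

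The libraries held 23755510 to 32805574 counts each. Replicate 3 at 0.25 µM and replicate 3 at 0.5 µM stood apart from the other 13 on principal component 3 (70.1 and 75.4 against 16.02 or lower), which held 4.47% of the variance. NOVA1, CELF3, CELF4, ELAVL3 and RBFOX3, described below, were called higher at all doses also without these libraries. Of 9 genes taken to mark K562 cells, all had counts in untreated cells, where their summed level ranged from 1851 to 1934 CPM, the count of a gene scaled to library size, against 266 to 502 CPM with 1 µM. At 1 µM 7 of these 9 genes were called lower and 1 higher, beside 27.5% and 38.8% of all tested genes. The gene called higher was HBE1 (means of 0.170 and 0.491 CPM), and HBG1 was not called. HBE1 had too few untreated reads to enter the test without the treated libraries, so its call is no independent support for a rise. Genes of the same strand cover 90% of the HBE1, 55.6% of the HBG2 and 14.9% of the HBG1 exon bases, which leaves their counts uncertain. GATA1, the erythroid and megakaryocytic transcription factor and 1 of those called lower, had 328 ± 5.92 CPM without the drug and 18.8 ± 3.08 CPM with 1 µM (SD, n = 3). These samples are bulk RNA, so fewer cells of a kind and less RNA per cell cannot be told apart.

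**Figure D1:**
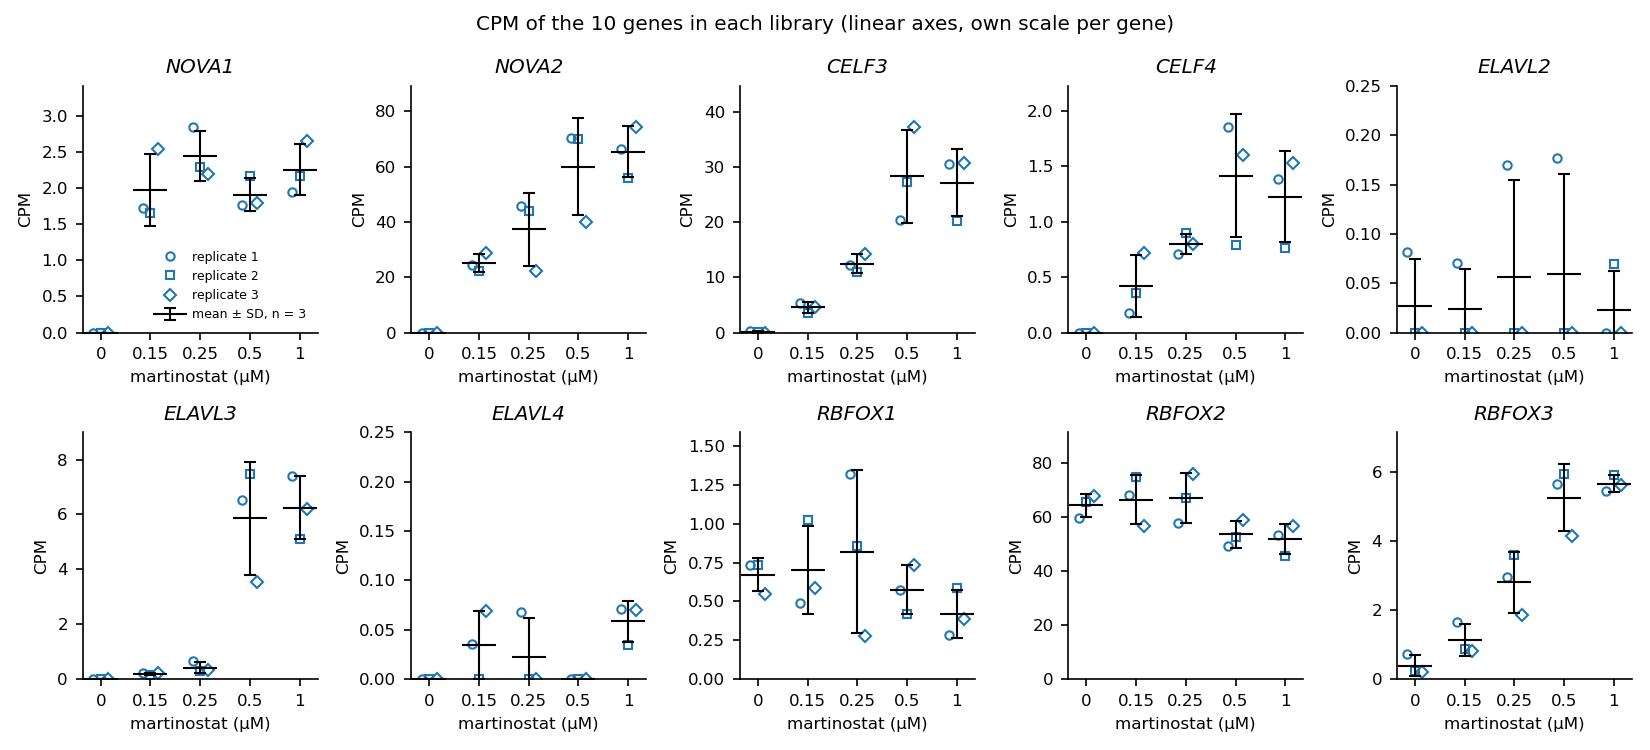
CPM (vertical, linear, with its own scale for each gene) of the 10 genes against martinostat concentration (horizontal, µM). Symbols are the 3 libraries of each group, and bars are mean ± SD. NOVA1, NOVA2, CELF3, CELF4, ELAVL3 and RBFOX3 lie above the untreated libraries at all doses, while ELAVL2 and ELAVL4 stay under 0.2 CPM.

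NOVA1 and NOVA2 were both silent in untreated cells and both had reads in every treated library. NOVA2 had 0 counts in each of the 3 untreated libraries. It had 697, 635 and 833 counts with 0.15 µM, 1355, 1227 and 884 with 0.25 µM, 1594, 1670 and 1468 with 0.5 µM, and 1867, 1616 and 2132 with 1 µM. Every treated library lay far above every untreated library, and replicate 3 was the lowest library at both 0.25 and 0.5 µM. In CPM the NOVA2 level was 25.2 ± 3.18 with 0.15 µM, 37.3 ± 13.2 with 0.25 µM, 60.1 ± 17.4 with 0.5 µM and 65.5 ± 9.29 with 1 µM (SD, n = 3). Without the 2 libraries that stood apart, the mean was 44.9 CPM with 0.25 µM and 70.1 CPM with 0.5 µM. Since no untreated library held a read, the change is given as a bound against 3 counts over the untreated group (0.0395 CPM): NOVA2 was at least 637-fold higher at 0.15 µM and at least 1656-fold higher at 1 µM. In CPM each dose overlapped the next one, and the libraries at 0.15 µM lay below those at 0.5 and 1 µM.

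NOVA1 (chr14:26443090-26598033, minus strand), the paralog of NOVA2, also had 0 counts in each untreated library, but its level did not climb with the dose. It had 49, 47 and 74 counts with 0.15 µM, 84, 64 and 88 with 0.25 µM, 40, 52 and 66 with 0.5 µM, and 55, 63 and 76 with 1 µM. All 12 treated libraries therefore lay above all 3 untreated ones. In CPM the libraries at 0.25 µM lay above those at 0.5 µM, and all other pairs of doses overlapped. The mean was 1.98 ± 0.495 CPM with 0.15 µM and 2.26 ± 0.356 CPM with 1 µM (SD, n = 3), at least 49.99-fold and at least 57.2-fold higher than the untreated bound (adjusted p = 2.14e-08 and 4.45e-09, quasi-likelihood F test of edgeR, adjusted by Benjamini-Hochberg over 23711 genes, as for all adjusted p below). NOVA1 passed the filter on low counts only through treated libraries, so its p-values against untreated cells are no independent support for a rise. The same holds for every gene below with 0 counts in untreated cells, and CELF3 and RBFOX3 also needed treated libraries to pass. Between 0.15 and 1 µM the log2 difference of NOVA1 was 0.19 ± 0.30 (SE, adjusted p = 0.632). Its interval of 2 SE on each side ran from -0.40 to 0.78.

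CELF3 and CELF4, the neuronal members of the CELF family in this set, both rose. CELF3 (chr1:151700058-151716803, minus strand) had 8, 4 and 0 counts in the untreated libraries. It had 155, 101 and 137 counts with 0.15 µM, 359, 306 and 571 with 0.25 µM, 463, 651 and 1369 with 0.5 µM, and 862, 585 and 881 with 1 µM. Scaled to library size, the groups up to 0.5 µM did not overlap, and the highest library was replicate 3 at 0.5 µM. In CPM, CELF3 went from 0.161 ± 0.164 in untreated cells to 4.58 ± 0.949, 12.5 ± 1.69, 28.3 ± 8.44 and 27.2 ± 6.03 with increasing dose (SD, n = 3). The log2 fold change against untreated cells was 4.81 ± 0.47 with 0.15 µM and 7.38 ± 0.45 with 1 µM (SE, adjusted p = 1.74e-07 and 1.66e-10). A gene of the other strand covers 1.67% of the CELF3 exon bases.

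CELF4 (chr18:37243040-37565827, minus strand) had 0 counts in each untreated library and low counts in all treated ones. The counts were 5, 10 and 21 with 0.15 µM, 21, 25 and 32 with 0.25 µM, 42, 19 and 59 with 0.5 µM, and 39, 22 and 44 with 1 µM. Treated and untreated libraries did not overlap, but neighbouring doses did. The mean was 0.417 ± 0.279 CPM with 0.15 µM and 1.23 ± 0.411 CPM with 1 µM, at least 10.6-fold and at least 31.0-fold higher than the bound (adjusted p = 0.000179 and 2.74e-06). From 0.15 to 1 µM the log2 difference was 1.54 ± 0.51 (SE, adjusted p = 0.0216), and the call was lost without replicate 1 or 2 at 0.15 µM or replicate 1 or 3 at 1 µM (adjusted p = 0.0947, 0.0717, 0.0630 and 0.0790). Genes of the other strand cover 7.28% of its exon bases.

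Of the 3 neuronal Hu genes, ELAVL3 alone reached more than a few reads. ELAVL3 (chr19:11451326-11481046, minus strand), which encodes HuC, had 0 counts in each untreated library. It had 6, 4 and 6 counts with 0.15 µM and 19, 8 and 13 with 0.25 µM, then 148, 179 and 130 with 0.5 µM and 209, 148 and 178 with 1 µM. The groups at 0.15 and 0.25 µM lay entirely below those at 0.5 and 1 µM, which overlapped. In CPM this was 0.186 ± 0.0390, 0.419 ± 0.196, 5.85 ± 2.06 and 6.25 ± 1.15 (SD, n = 3). ELAVL3 was thus at least 4.71-fold higher than the bound at 0.15 µM and at least 158-fold higher at 1 µM (adjusted p = 0.00118 and 1.83e-09). From 0.25 to 0.5 µM the log2 difference was 3.80 ± 0.39 (SE, adjusted p = 1.24e-06). An exon overlap of 5.38% with another gene of the same strand leaves a small part of its counts uncertain.

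ELAVL2 (HuB) and ELAVL4 (HuD) did not pass the filter on low counts and were not tested. ELAVL2 had 2 counts in all untreated libraries together and never more than 5 in any library. Its reads came from replicate 1 in the groups up to 0.5 µM and from replicate 2 at 1 µM. ELAVL4 had 0 counts in untreated cells, 3 over the group at 0.15 µM, 2 with 0.25 µM, 0 with 0.5 µM and 5 with 1 µM. A difference was not detectable at this depth for either gene.

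The RBFOX genes were all detected in untreated cells and went different ways. RBFOX3 (chr17:79089345-79611051, minus strand) had 18, 6 and 5 counts in untreated cells. It had 47, 25 and 24 counts with 0.15 µM, 87, 100 and 74 with 0.25 µM, 128, 142 and 152 with 0.5 µM, and 153, 171 and 161 with 1 µM. Scaled to library size, each group up to 0.5 µM lay above the group before it, and the groups at 0.5 and 1 µM overlapped. The mean rose from 0.388 ± 0.302 to 1.12 ± 0.461, 2.79 ± 0.873, 5.24 ± 0.971 and 5.65 ± 0.240 CPM (SD, n = 3), a log2 fold change of 1.53 ± 0.45 with 0.15 µM and 3.86 ± 0.43 with 1 µM (SE, adjusted p = 0.00770 and 2.11e-07). The call at 0.15 µM was lost without replicate 1 of that dose (1.14, adjusted p = 0.0581).

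RBFOX1 (chr16:5239802-7713340, plus strand), best known from brain and muscle, had 18, 19 and 14 counts in untreated cells and 8, 17 and 11 with 1 µM. The groups overlapped at every dose. The level was 0.673 ± 0.108 CPM without the drug and 0.418 ± 0.155 CPM with 1 µM (SD, n = 3), a log2 difference of -0.68 ± 0.54 (SE, adjusted p = 0.282). Its 2 SE interval, from -1.77 to 0.41, leaves changes of either sign possible.

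RBFOX2 (chr22:35738736-36028824, minus strand), the broadly expressed family member, was abundant throughout and did not pass the test at any dose. It had 1455, 1701 and 1734 counts in untreated cells, 1936, 2116 and 1647 with 0.15 µM, 1703, 1876 and 3038 with 0.25 µM, 1114, 1258 and 2171 with 0.5 µM, and 1498, 1322 and 1630 with 1 µM. On the scaled libraries it had 64.4 ± 4.34 CPM without the drug, 67.0 ± 9.18 CPM with 0.25 µM and 51.9 ± 5.70 CPM with 1 µM (SD, n = 3). The 1 µM libraries lay below the untreated ones, by a log2 difference of -0.31 ± 0.15 (SE, adjusted p = 0.0676) with a 2 SE interval from -0.60 to -0.02. The sign depended on the scaling: with plain library totals the 1 µM value was 0.04, and the 0.25 µM value was 0.60 and called higher (adjusted p = 0.0101). The value at 1 µM was called lower when the 1 µM and untreated libraries were fitted alone (adjusted p = 0.0134).

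Taken over the set, 8 of the 10 genes passed the filter on low counts, 7 of them other than NOVA2. Of these 7, the genes NOVA1, CELF3, CELF4, ELAVL3 and RBFOX3 were called higher at each of the 4 doses and none was called lower. Over all 23711 tested genes, 31.9%, 37.4%, 39.4% and 38.8% were called higher from the lowest to the highest dose. The shares called lower were 19.4%, 24.8%, 27.6% and 27.5%. NOVA1, CELF4 and ELAVL3 could pass the filter only through the treated libraries, so they had to differ if they were tested. CELF3 and RBFOX3 had reads in untreated cells, but too few for the untreated libraries to pass the filter by themselves. Treated libraries brought them in as well, so the calls of these genes describe the set and do not test it. The 2 genes that did not pass belong to the 10 as well. Over all tested genes the median log2 fold change at 1 µM was 0.32. It was 0.67 on plain library totals and 0.70 with scaling factors from genes of at least 10 CPM, and these scalings called 10808 higher and 4777 lower, and 11102 higher and 4738 lower, against 9193 and 6514.

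The step at which each gene moved differed between genes. From 0.15 to 0.25 µM, 12.3% of all tested genes changed in either direction, and 2 of the 7 did, CELF3 by 1.45 ± 0.30 and RBFOX3 by 1.31 ± 0.37 on the log2 scale (SE, adjusted p = 0.00474 and 0.0287). The RBFOX3 call at this step was lost without replicate 2 or 3 at 0.15 µM or replicate 1 or 2 at 0.25 µM (adjusted p = 0.110, 0.108, 0.0625 and 0.110). From 0.25 to 0.5 µM, 30.4% of all genes changed, and again 2 of the 7 did, CELF3 by 1.18 ± 0.29 (adjusted p = 0.00451) and ELAVL3 as given above. RBFOX3 had 0.91 ± 0.35 at this step (adjusted p = 0.0567), and it passed with RLE factors, with DESeq2 and with no filter on low counts (adjusted p = 0.0472, 0.0155 and 0.0354).

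Same-numbered libraries at 0.25 and 0.5 µM deviated together from their group means, most strongly replicate 3 (r = 0.579). Whether replicates 1 and 2 are paired by number could not be decided. This step was also fitted with the replicate number as a block on these 6 libraries. The block assumes pairing by number, and the calls made with it depend on that. With the block, 42.2% of all tested genes were called between 0.25 and 0.5 µM, more than the 30.4% without it, and 4 of the 7 genes were. CELF3, ELAVL3 and RBFOX3 were higher at 0.5 µM (RBFOX3 by 0.93, adjusted p = 0.00335) and RBFOX2 was lower by -0.33 on the log2 scale (adjusted p = 0.0152).

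From 0.5 to 1 µM, 0 of 23711 genes were called (0%) by edgeR and 0 by DESeq2, and 372 had an unadjusted p under 0.05 by edgeR, with none of the 7 genes among them. The 2 SE interval of this last step was -0.63 to 0.51 for CELF3, -0.54 to 0.74 for ELAVL3 and -0.57 to 0.80 for RBFOX3. Over the whole range from 0.15 to 1 µM, 44.5% of all genes changed, and 4 of the 7 did, all upwards: CELF3 by 2.57 ± 0.31, CELF4 as above, ELAVL3 by 5.03 ± 0.43 and RBFOX3 by 2.33 ± 0.38 (SE, adjusted p = 2.77e-06 for CELF3, 7.42e-08 for ELAVL3 and 5.29e-05 for RBFOX3). NOVA1, RBFOX1 and RBFOX2 were not called over this range, RBFOX2 at -0.36 ± 0.15 (adjusted p = 0.0531).

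**Figure D2:**
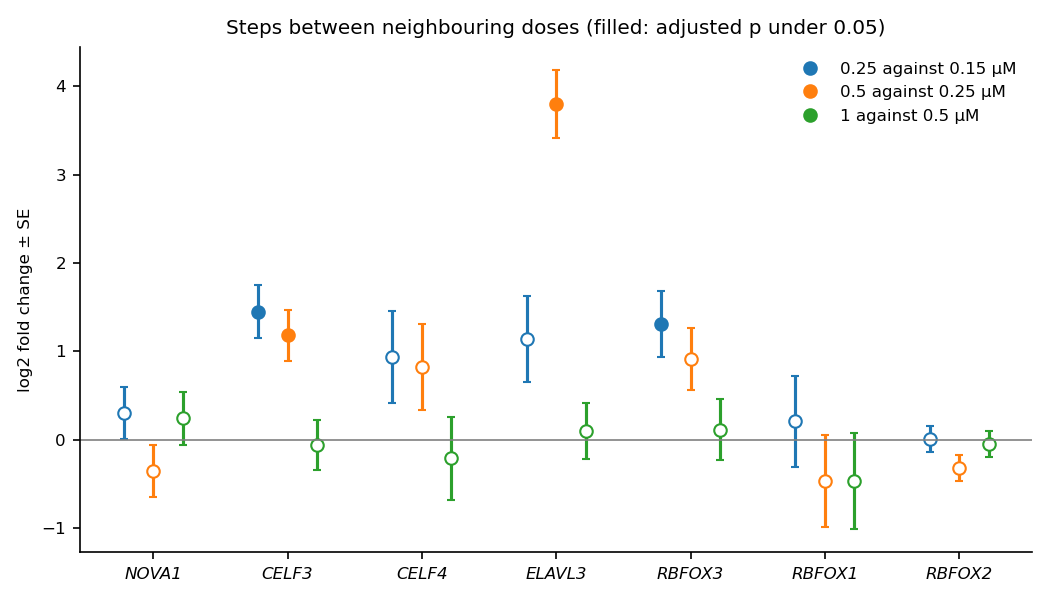
Log2 fold change with SE (vertical) of the 7 tested genes other than NOVA2 for each step between neighbouring doses (colours), with filled symbols for adjusted p under 0.05. ELAVL3 has its large step of 3.80 between 0.25 and 0.5 µM, CELF3 has called steps of 1.45 and 1.18 at the lower doses, and no gene has a called step from 0.5 to 1 µM.

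Levels were compared between genes on CPM per kb of summed exon length. In untreated cells RBFOX2, at 5.21 ± 0.351 CPM per kb, was the only one of the 10 above 0.05, followed by RBFOX1 at 0.0427, RBFOX3 at 0.0384 and CELF3 at 0.0237 CPM per kb. At 1 µM the order was NOVA2 at 7.13 ± 1.01, RBFOX2 at 4.20 ± 0.461, CELF3 at 4.01 ± 0.891, ELAVL3 at 1.31 ± 0.242, RBFOX3 at 0.559 ± 0.0238, NOVA1 at 0.219 ± 0.0345 and CELF4 at 0.194 ± 0.0649 CPM per kb (SD, n = 3), with RBFOX1, ELAVL4 and ELAVL2 below 0.03. The libraries of RBFOX2 and CELF3 overlapped in this order, as did those of NOVA1 and CELF4. NOVA2 thus went from no reads to a level above that of RBFOX2, another splicing regulator, which these cells express without the drug. With the gene length implied by the deposited FPKM values, which counts introns, NOVA2 and CELF3 were level at 1 µM (both 1.62 CPM per kb of that length), CELF3 was ahead at 0.5 µM (1.69 against 1.49), and the libraries of RBFOX2 overlapped those of ELAVL3 at 1 µM (means of 0.179 and 0.210).

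Shares within each family differed between untreated and treated cells. NOVA2 made up 93.5% ± 0.760 of the summed NOVA1 and NOVA2 level per kb at 0.15 µM and 97.0% ± 0.405 with 1 µM (SD, n = 3). CELF3 to CELF6, of which CELF5 and CELF6 are not in the set, held 0.240% ± 0.0509 of the level per kb of all 6 CELF genes in untreated cells and 22.5% ± 2.70 with 1 µM, and the summed level of the 6 genes was 58.8 ± 3.35 and 26.9 ± 2.57 CPM per kb. CELF3 alone held 14.8% ± 2.04 of it at 1 µM. Genes of the same strand cover 93.3% of the CELF6 exon bases, so the low CELF6 level in these shares is uncertain. RBFOX1 and RBFOX3 together held 1.56% ± 0.761 of the RBFOX level in untreated cells and 12.3% ± 1.79 with 1 µM, the larger part of which was RBFOX3. The neuronal Hu genes held 0.0126% ± 0.0218 of the ELAVL level before and 6.68% ± 0.748 with 1 µM, the remainder being ELAVL1 (HuR). In the CELF, RBFOX and ELAVL families the lowest share at 1 µM lay above the highest share in untreated cells, and these shares were not tested.

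**Figure D3:**
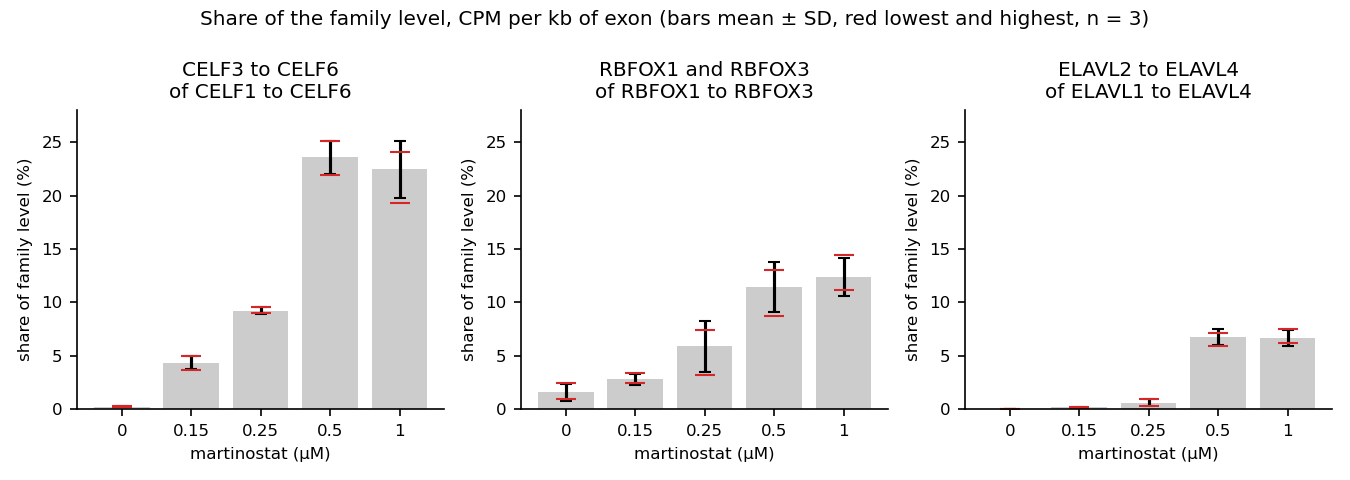
Share (vertical, percent of the summed CPM per kb of exon) of the neuronal genes of the CELF, RBFOX and ELAVL families against martinostat concentration (horizontal, µM). Grey bars are means with SD (n = 3), and red marks are the lowest and highest library. The shares at 1 µM are 22.5%, 12.3% and 6.68%, and in each family those at 0.5 and 1 µM lie close together.

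Other splicing regulators with which these proteins compete or act were taken from a list of 20 genes, of which 17 were tested. At 1 µM 5 were called higher and 12 lower, where 38.8% and 27.5% of all tested genes were, and the median log2 fold change was -0.98 against 0.32 over all genes. At 0.15 µM it was 5 higher and 8 lower, beside 31.9% and 19.4% of all genes. With plain library totals, or with factors from genes of at least 10 CPM, 7 were called lower at 1 µM in place of 12. Among the genes called higher, SRRM4 had no untreated reads, and MSI1 and CELF5 had too few to pass the filter by themselves. They entered through treated libraries, so their calls describe the list and do not test it.

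The genes of the list called lower included abundant regulators of non-neuronal cells. PTBP1, the repressor of neuronal exons, had 1378, 1567 and 1642 CPM in the untreated libraries and 438, 366 and 405 CPM with 1 µM, with no overlap. Its log2 fold change was -0.98 ± 0.18 with 0.15 µM and -1.92 ± 0.19 with 1 µM (SE, adjusted p = 2.00e-04 and 3.77e-08). PTBP2, the neuronal paralog of PTBP1, was lower too, at 5.54 ± 0.123 against 11.6 ± 1.70 CPM (SD, n = 3; log2 -1.07, adjusted p = 0.00265), a call lost on plain library totals (adjusted p = 0.0823) and with factors from genes of at least 10 CPM (adjusted p = 0.0638). ELAVL1, the Hu protein of most cells, had 290 ± 8.70 CPM without the drug and 128 ± 11.0 CPM with 1 µM (log2 -1.18, adjusted p = 1.45e-05).

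CELF2 had the lowest log2 fold change of the list. It had 349, 334 and 383 CPM without the drug, 155, 169 and 215 CPM with 0.25 µM and 19.3, 16.9 and 25.1 CPM with 1 µM, so that the groups did not overlap. Its log2 fold change at 1 µM was -4.12 ± 0.20, and the step from 0.25 to 0.5 µM was -3.17 ± 0.19 (SE, adjusted p = 2.94e-12 and 1.13e-09). That is the step at which ELAVL3 rose. MSI2, a Musashi protein of haematopoietic cells, was lower by -2.36 ± 0.15, MBNL1, a muscleblind protein that opposes CELF proteins on shared exons, by -2.07 ± 0.16, and QKI by -2.001 ± 0.157 (SE, adjusted p = 1.47e-10, 1.16e-09 and 1.92e-09). Genes of the other strand cover 15.9% of the MBNL1 exon bases.

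The genes of the list called higher were low in untreated cells. MSI1, a Musashi protein known from neural progenitors, had 0.262 ± 0.0926 CPM untreated, 17.4 ± 1.70 with 0.15 µM, 5.07 ± 0.523 with 0.5 µM and 8.35 ± 0.261 with 1 µM (SD, n = 3), and was lower at 0.5 than at 0.25 µM (log2 -1.67 ± 0.21 SE, adjusted p = 6.13e-06). SRRM3, an activator of neuronal microexons, had 2.82 ± 0.617 CPM untreated, 58.2 ± 13.5 with 0.15 µM and 53.9 ± 6.24 with 1 µM (log2 4.26 with 1 µM, adjusted p = 3.98e-11). Its paralog SRRM4 had 0 counts untreated and 0.361 ± 0.158 CPM with 0.15 µM, at least 9.13-fold higher than the bound (adjusted p = 0.000939), and 0.0809 ± 0.0721 CPM with 1 µM, at least 2.05-fold higher (adjusted p = 0.0269). The SRRM4 call at 1 µM was lost without any 1 of the untreated libraries and without replicate 2 or 3 at 1 µM (adjusted p = 0.0555 to 0.0796). CELF5, another neuronal CELF gene, had 0.707 ± 0.304 CPM untreated and 11.4 ± 1.93 CPM with 1 µM (log2 4.00, adjusted p = 1.34e-10).

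**Figure D4:**
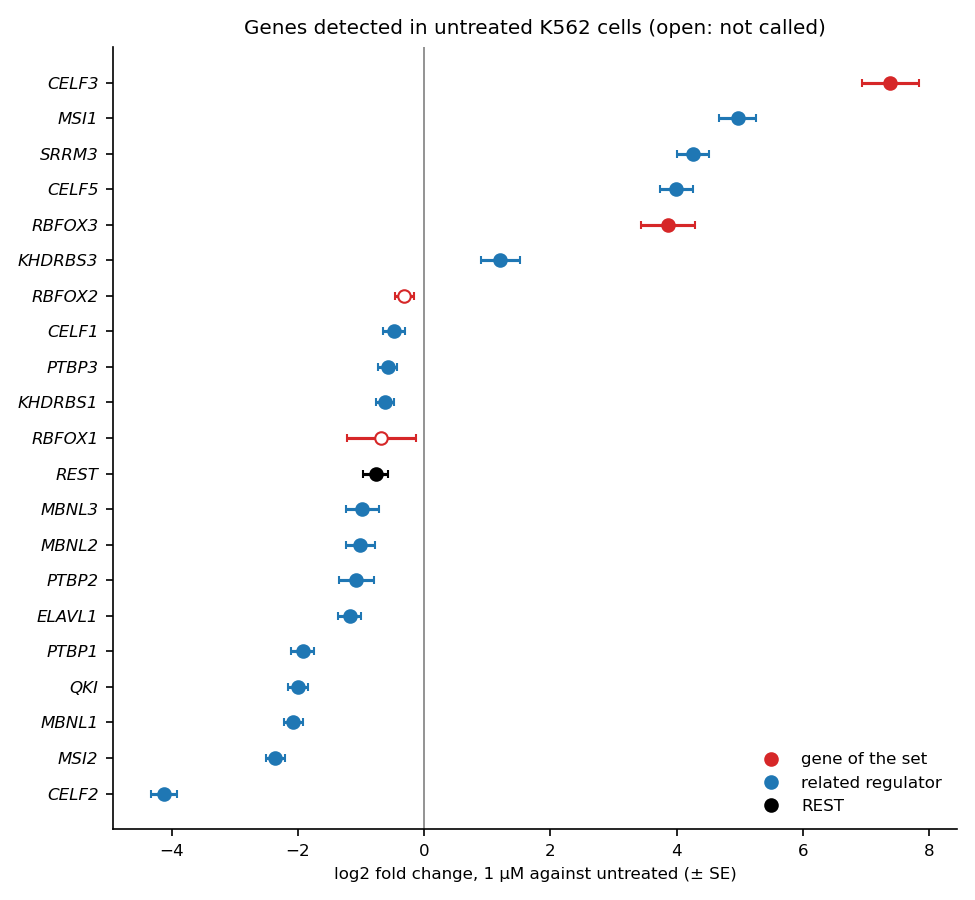
Log2 fold change with SE (horizontal) at 1 µM against untreated cells, for the genes of the set (red) and the related splicing regulators (blue) that had reads in untreated cells, with REST in black and open symbols for genes not called. CELF3 stands at 7.38 and CELF2 at -4.12, while PTBP1 at -1.92 and REST at -0.77 lie on the lower side.

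REST and its corepressors were a list of 14 genes, all tested. At 1 µM 5 were called higher and 5 lower, near the 38.8% and 27.5% of all tested genes, with a median log2 fold change of 0.25 against 0.32 over all genes. REST itself had 62.6, 53.4 and 49.97 CPM without the drug, 34.2, 46.6 and 54.3 CPM with 0.25 µM and 32.7, 31.4 and 33.2 CPM with 1 µM. The 1 µM libraries lay below all untreated ones, by a log2 difference of -0.77 ± 0.19 (SE, adjusted p = 0.00177). On plain library totals REST was at -0.42 and not called (adjusted p = 0.130), likewise with factors from genes of at least 10 CPM (-0.39, adjusted p = 0.106).

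Among the partners of REST, HDAC2 was lower by -1.70 ± 0.13 and CTDSP1, a phosphatase that acts with REST, by -1.66 ± 0.13 on the log2 scale at 1 µM (SE, adjusted p = 2.08e-09 and 1.80e-09). RCOR2, a CoREST paralog, was higher by 1.29 ± 0.23, HMG20B by 1.04 ± 0.26 and PHF21A by 0.66 ± 0.14 (SE, adjusted p = 6.14e-05, 0.00186 and 0.000296). SIN3B was higher by 0.39 (adjusted p = 0.0375), a call lost without any 1 of the untreated libraries and without replicate 1 or 3 at 1 µM. SIN3A, the remaining gene called higher, was at 0.32 (adjusted p = 0.0476) and was lost under these omissions and others. The number called higher was 3 without these libraries, 3 with no filter on low counts, and 8 on plain library totals.

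General neuronal genes that do not act in splicing were read from a list of 12 genes, of which 9 were tested. At 1 µM 8 were called higher and none lower, against 38.8% and 27.5% of all tested genes, and SYT1 was not called (0.47, adjusted p = 0.130). Of the 8, SNAP25, STMN2, MAP2, NEFM and GAP43 had 0 counts in every untreated library, so they could pass the filter only through the treated libraries and had to differ. TUBB3, a neuronal tubulin, had reads without the drug and went from 0.265 ± 0.0675 to 41.4 ± 8.18 CPM (SD, n = 3; log2 7.27 ± 0.29 SE, adjusted p = 2.79e-13). Its untreated reads were too few to pass the filter by themselves, so it also entered through treated libraries. The summed level of the 12 genes was 16.9 to 22.4 CPM without the drug, with 8 genes at 0 counts, and 194 to 234 CPM with 1 µM. MAP2, a dendritic microtubule protein, went from 0 counts to 9.12 ± 0.568 CPM with 1 µM, STMN2, a growth cone protein, from 0 to 4.80 ± 0.0248 and NEFM, a neurofilament subunit, from 0 to 3.26 ± 0.205 CPM (SD, n = 3). These are at least 231-fold, 121-fold and 82.6-fold higher than the bound. For NEFM, 26.4% of the exon bases are shared with a gene of the other strand, and for TUBB3, 21.3% with genes of the same strand.

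Markers of cell types outside the culture were read beside these values. Of 5 fibroblast genes 3 were tested, and the summed level was 21.9 to 25.4 CPM without the drug and 301 to 486 CPM with 1 µM, nearly all of it COL1A1 (4.36 ± 0.954 and 398 ± 94.4 CPM), while COL1A2, its partner chain, had 18.9 ± 2.12 and 9.70 ± 2.32 CPM and DCN 0.132 ± 0.0469 and 0.326 ± 0.132 CPM. COL3A1 and LUM had 0 counts in untreated cells and stayed under 0.3 CPM on average at every dose. Of 5 lymphocyte genes, the summed level was 5.79 to 9.28 CPM without the drug, 21.1 to 29.97 CPM with 0.15 µM and 10.04 to 13.2 CPM with 1 µM, with MS4A1 at 0 up to 0.25 µM. The part of these genes in the rise of the neuronal regulators was not tested.

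The genes beside NOVA2 also had higher values. The nearest annotated protein-coding gene on one side, NANOS2 (18956 bases away, chr19:45913214-45914778), had 0 counts in untreated cells and 0.594 ± 0.301 CPM with 1 µM (SD, n = 3; adjusted p = 0.000772). The nearest on the other side, CCDC61 (21417 bases away, chr19:45995461-46021318), had 19.4, 18.8 and 16.8 CPM without the drug and 38.1, 51.2 and 38.1 CPM with 1 µM (adjusted p = 4.62e-05). At 0.15 µM, where NOVA2 already had 635 or more counts in each library, CCDC61 was at 0.43 ± 0.21 (adjusted p = 0.0926).

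The 5 genes whose log2(CPM + 1) followed NOVA2 most closely over the 15 libraries, among the 11217 genes that reached a group mean of 10 CPM, were HEYL, HID1, PTGES, COL6A2 and ATP8A2, with Pearson's r of 0.997 for each. HEYL, a Notch target gene, went from 0.951 CPM to 48.4 CPM with 1 µM, and HID1 from 0.499 to 72.7 CPM. Among the genes of the set r with NOVA2 was 0.957 for NOVA1, 0.929 for CELF3, 0.849 for RBFOX3, 0.840 for CELF4, 0.672 for ELAVL3, -0.15 for RBFOX1 and -0.42 for RBFOX2. The points share their libraries and the split between untreated and treated cells, so these values are a description of likeness only.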

How the data were processed

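The 15 K562 libraries were grouped by their labels. The authors trimmed reads, aligned them to hg38 with HISAT2 2.2.1 and counted GENCODE genes with featureCounts 1.5.3. The strand setting of the counting is not given in the sources used here. The deposited table holds raw counts. The deposited FPKM values, computed by the authors, divide by a length that includes introns (in 94.4% of 48212 genes the span of the gene, within a tolerance of 0.001), and served only as a length alternative. Exon lengths, overlaps and positions came from GENCODE 44, promoters from RefSeq.

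Counts were filtered with filterByExpr, scaled by TMM and fitted in edgeR 4.0.16 (R 4.3.3) over all 15 libraries with the group as the only term. The threshold was 0.05 on p adjusted by Benjamini-Hochberg over all tested genes. The test was checked on simulated data for 1 µM against untreated cells (23711 genes, 50 changed at each fold). It recovered 6 at 1.5-fold, 22 at 2-fold, 48 at 4-fold and 50 at 8-fold, with 2 false calls. In the measured libraries 38.8% of genes were called higher and 27.5% lower at 1 µM. Whether these recoveries and false calls hold with so many changes, or for genes with few counts, was not tested. p-values measure the spread between these 3 replicates per group, and floors of 3 counts cover counting error only.

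The genes and lists were chosen with earlier results of these data known. Named genes were all 10 of the set, the 4 highest and 4 lowest called genes of the related splicing and REST lists at 1 µM with REST, PTBP1, PTBP2, SRRM3, SRRM4, MBNL1 and ELAVL1, the 3 highest general neuronal genes, the 5 genes most like NOVA2, and its neighbours. SIN3A, EHMT2, RCOR1, RCOR3, HDAC1, TUBB3, SYT1, SNAP25, GAP43 and the single K562, fibroblast and lymphocyte genes were named after their values were seen. Alternatives were other scalings, filters, DESeq2 1.42.0, fits of the compared groups alone, a replicate block and leaving out libraries.

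The replicate numbers were checked for pairing. Between 0.25 and 0.5 µM the deviations of same-numbered libraries correlated at 0.266, 0.268 and 0.579, the last for replicate 3. Replicate 2 at 0.25 µM gave 0.236 with replicate 1 at 0.5 µM, close to the values for equal numbers. Deviations were taken from group means, so a shared outlying replicate 3 would by itself raise the values among replicates 1 and 2. The check therefore sets replicate 3 apart and cannot decide whether replicates 1 and 2 are paired by number. The block on these groups assumes that they are. In all other pairs of groups the values for equal numbers were 0.0918 or lower.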

Additional observations from a re-analysis of the deposited data

How the results depend on the processing

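The calls of NOVA1, CELF3, CELF4, ELAVL3 and RBFOX3 against untreated cells at the 4 doses were recomputed under every alternative in which the gene was tested. Of these, 459 of 460 kept direction and call, the exception being RBFOX3 at 0.15 µM given in the report. These genes entered the test through their treated libraries, and NOVA1, CELF4 and ELAVL3 had no untreated reads. Most of this stability was therefore fixed in advance and is no separate support. Leaving out single libraries gave 4 to 5 genes of the set higher at 0.15 µM, 1 to 2 called from 0.15 to 0.25 µM, 2 to 3 from 0.25 to 0.5 µM, 3 to 5 from 0.15 to 1 µM, and 3 to 7 REST and corepressor genes higher at 1 µM. NOVA2 means without single libraries ran from 61.0 to 70.3 CPM at 1 µM. A minimum of 10 counts in every library left RBFOX2 as the only gene of the set, called higher (1) at 0.25 µM and in no other comparison (0), and gave 3 of 15 tested related regulators, 8 of 14 REST genes and 3 of 3 neuronal genes higher at 1 µM. RCOR1 (0.45), RCOR3 (0.65) and HDAC1 (0.63) were the REST genes newly called. With the replicate block on the 0.25 and 0.5 µM libraries alone, chosen after seeing the data, 4 genes were called between these doses. This count assumes pairing by number, which was not shown. Over all libraries the block moved no other count of the set by over 1.5 times. Fitting the 2 groups alone added 1 gene lower at 1 µM, RBFOX2. Plain library totals and factors from genes of at least 10 CPM each gave 7 related regulators lower, 8 REST genes higher and 3 lower. No filter gave 3 REST genes higher. With the length of the deposited FPKM, the NOVA2 share at 1 µM was 99.1% and the RBFOX1 and RBFOX3 share 7.04%.

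Signs turned only where no call stood (log2 values). RBFOX2 reversed at 0.15 µM with RLE factors (-0.0014) and DESeq2 (-0.0014), at 0.5 µM on library totals (0.13), with factors from abundant genes (0.16) and with the strict filter (0.031), and at 1 µM on library totals (0.045) and with factors from abundant genes (0.071). RBFOX1 reversed at 0.5 µM on library totals (0.20) and with factors from abundant genes (0.22), and EHMT2 at 1 µM on library totals (0.090), with factors from abundant genes (0.12) and with the strict filter (0.011). Without replicate 3 of both 0.25 and 0.5 µM, RBFOX2 was at -0.019 at 0.25 µM, -0.068 from 0.15 to 0.25 µM and 0.029 from 0.5 to 1 µM, where ELAVL3 was at -0.17, RBFOX3 at -0.033 and CELF3 at 0.19. Leaving out single libraries, RBFOX1 ranged from -0.32 to 0.26 at 0.15 µM, -0.28 to 0.70 at 0.25 µM, -0.33 to 0.64 from 0.15 to 0.25 µM and -0.90 to 0.068 from 0.25 to 0.5 µM. RBFOX2 ranged from -0.045 to 0.15 at 0.15 µM, -0.044 to 0.15 at 0.25 µM, -0.091 to 0.11 from 0.15 to 0.25 µM and -0.12 to 0.036 from 0.5 to 1 µM. From 0.5 to 1 µM the ranges were -0.17 to 0.32 for ELAVL3, -0.037 to 0.21 for RBFOX3, -0.25 to 0.19 for CELF3 and -0.49 to 0.039 for CELF4. The cause was not tested. Depth limits ELAVL2, ELAVL4 and, at 1 µM, SRRM4, which rest on a few reads.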
